A study of Mus musculus with 6 samples.

Results

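The genes described here are the 2 cIAP genes and the genes around them in non-canonical NF-kappaB signalling, in mouse mesenchymal stromal cells (MSCs). They are Birc2 (cIAP1), Birc3 (cIAP2), Xiap, Traf1, Traf2, Traf3, Map3k14, Nfkb2, Relb and Tnfaip3. These 10 genes were found by symbol among the 23420 genes of the deposited read count table, and all 10 were among the 11974 genes that passed the filter on low counts. Birc2 and Birc3 were chosen by their lower counts in the libraries labelled MSC-TPr, so their difference between the groups is given as a description, and no test of it is reported. The other 8 were included for their roles as partners, inhibitors or outputs of the same pathway.

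The cIAP proteins are ubiquitin ligases with BIR domains and a RING domain. In resting cells they form a complex with TRAF2 and TRAF3 that marks the kinase NIK (Map3k14) for degradation, which keeps non-canonical NF-kappaB off. When a receptor of the TNF family such as LTBR, CD40 or TNFRSF12A recruits the complex, NIK accumulates, IKKα is activated, p100 (Nfkb2) is processed to p52, and p52 enters the nucleus with RelB. The cIAPs also add ubiquitin to RIPK1 in the TNF receptor 1 complex, on the canonical branch, and Birc3, Tnfaip3, Nfkb2, Relb and Traf1 are well known NF-kappaB target genes.

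The 6 libraries came from cultured MSCs, taken from the bone marrow of female C57BL/6 mice aged 6 to 8 weeks. At passage 5 both groups had been transduced with retrovirus, and the vector carries eGFP. In the 3 Ctl MSC libraries the construct was empty, and in the 3 MSC-TPr libraries it coded for the thymoproteasome (TPr) subunits β1i (Psmb9), β2i (Psmb10) and β5t (Psmb11). The thymoproteasome is the form of proteasome made by cortical epithelial cells of the thymus. Whether the 3 libraries of a group are separate cultures or separate transductions is not given in the sources used here, so the p-values measure only the spread between these libraries, which may be technical. The study asked what TPr expression does to the transcription of MSCs, and the comparison made here is between libraries of polyadenylated RNA as labelled. In bulk RNA, fewer cells that express a gene and less RNA per cell cannot be told apart.

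Between 16158756 and 22158887 reads were assigned to genes per library, and 3 reads corresponded to 0.139 to 0.181 CPM (reads scaled to a common library size). The 3 transduced genes did not separate the groups in these counts. Psmb11 reached at most 0.355 CPM in any library, and for Psmb9 and Psmb10 the groups overlapped. The RNA of these genes therefore did not bear out the labels, and a direction below means between libraries labelled MSC-TPr and libraries labelled Ctl MSC. The study reports that transduction was checked by eGFP and immunoblot, and it lists Psmb10 among genes with enhanced expression. Libraries numbered 1 stood apart from the others of their label. On the first principal component, with 58.5% of the variance, Ctl MSC 1 lay with MSC-TPr 2 and 3, and MSC-TPr 1 with Ctl MSC 2 and 3, whereas the second, with 28.3%, separated the groups as labelled. Over 12 cell division genes, log2 CPM averaged 6.64 in Ctl MSC 1 against 3.21 and 3.22 in Ctl MSC 2 and 3, and it was 3.21 in MSC-TPr 1 against 6.51 and 6.59 in MSC-TPr 2 and 3. The results below are therefore also given without the libraries numbered 1, which leaves 2 per group. In that setting cell division and the labels cannot be told apart, and 40% of all genes tested were called (20.6% higher and 19.4% lower), which is the background for each call given without these libraries. Of the MSC markers, Thy1 was nearly absent (1 read in all 6 libraries), whereas Eng, Cd44 and Itgb1 were present. These are RNA levels. By flow cytometry, the study reports the proteins of Thy1 and Nt5e on Ctl MSCs, and no change of mesenchymal phenotype in MSC-TPr. Of the 10 MSC markers 9 passed the filter on low counts and 0 were called (1 at an unadjusted p under 0.05), and Nt5e was lower in all 3 MSC-TPr libraries (log2 fold change −2.02, edgeR adjusted p = 0.079, and −1.99 without the libraries numbered 1). Of the macrophage and haematopoietic markers, 3 of 10 passed the filter on low counts, their summed level was 11.3 to 14.6 CPM in Ctl MSC against 13.03 to 17.6 CPM in MSC-TPr, Adgre1 was listed at 0 throughout, and Spi1 had 1 read and Ptprc 2 reads in all. Those that passed were Cd14, Cd68 and Csf1r, with means of 7.68, 5.88 and 0.406 CPM over all 6 libraries, where 0 were called. Without the libraries numbered 1, Csf1r (log2 fold change 3.74) and Cd14 (1.81) were called higher and Cd68 (−2.83) lower. They are named after their values were seen. Of the 6 endothelial markers 1 passed, and the summed level was 0.846 to 3.14 CPM in Ctl MSC against 1.76 to 3.49 CPM in MSC-TPr.

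Birc3 was far lower in the libraries labelled MSC-TPr than in those labelled Ctl MSC, though still above the detection limit in each. Its level was 78.4, 54.4 and 56.7 CPM in Ctl MSC 1 to 3 and 2.44, 3.25 and 3.85 CPM in MSC-TPr 1 to 3. In read counts this was 1297, 1018 and 1028 reads against 44, 55 and 83 reads. All 3 MSC-TPr libraries lay far below all 3 Ctl MSC libraries, and the libraries numbered 1 did not depart from this. The mean fell from 63.1 ± 13.2 CPM (SD, n = 3) to 3.18 ± 0.710 CPM (SD, n = 3), and the log2 fold change was −4.31. Without the libraries numbered 1 it was −3.95, and leaving out 1 library at a time gave −4.46 to −4.12. By size of fold change Birc3 ranked 34th of the 11974 genes tested. Birc3 was chosen by this fall, so these values only describe it.

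Birc2 was lower as well, by much less. Its level was 160, 217 and 185 CPM in Ctl MSC 1 to 3 and 134, 81.7 and 86.8 CPM in MSC-TPr 1 to 3. The groups did not overlap, but MSC-TPr 1 lay closer to Ctl MSC 1 than to the other MSC-TPr libraries. The means were 187 ± 28.8 CPM and 101 ± 28.6 CPM (SD, n = 3 each). The log2 fold change was −0.89 with all 6 libraries and −1.25 without those numbered 1. Its rank by size of fold change was 1247 of 11974. A gene was called when edgeR's quasi-likelihood test gave an adjusted p under 0.05 and its log2 fold change was 0.5 or more in either direction. By that rule 0.426% of all genes tested were called (0.401%, 48 genes, lower and 0.0251%, 3 genes, higher), and 15% had an unadjusted p under 0.05. Groups that did not overlap were found for 22.6% of all genes tested, and for Birc2 and Birc3 among the 10 genes here. As both were chosen for this contrast, nothing is read from this count, and whether they were called is not reported. All calls with 6 libraries were fragile, since no gene was called in either direction when Ctl MSC 2, Ctl MSC 3 or MSC-TPr 3 was left out (317 to 705 higher and 584 to 842 lower genes still had an unadjusted edgeR p under 0.05).

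**Figure D1:**
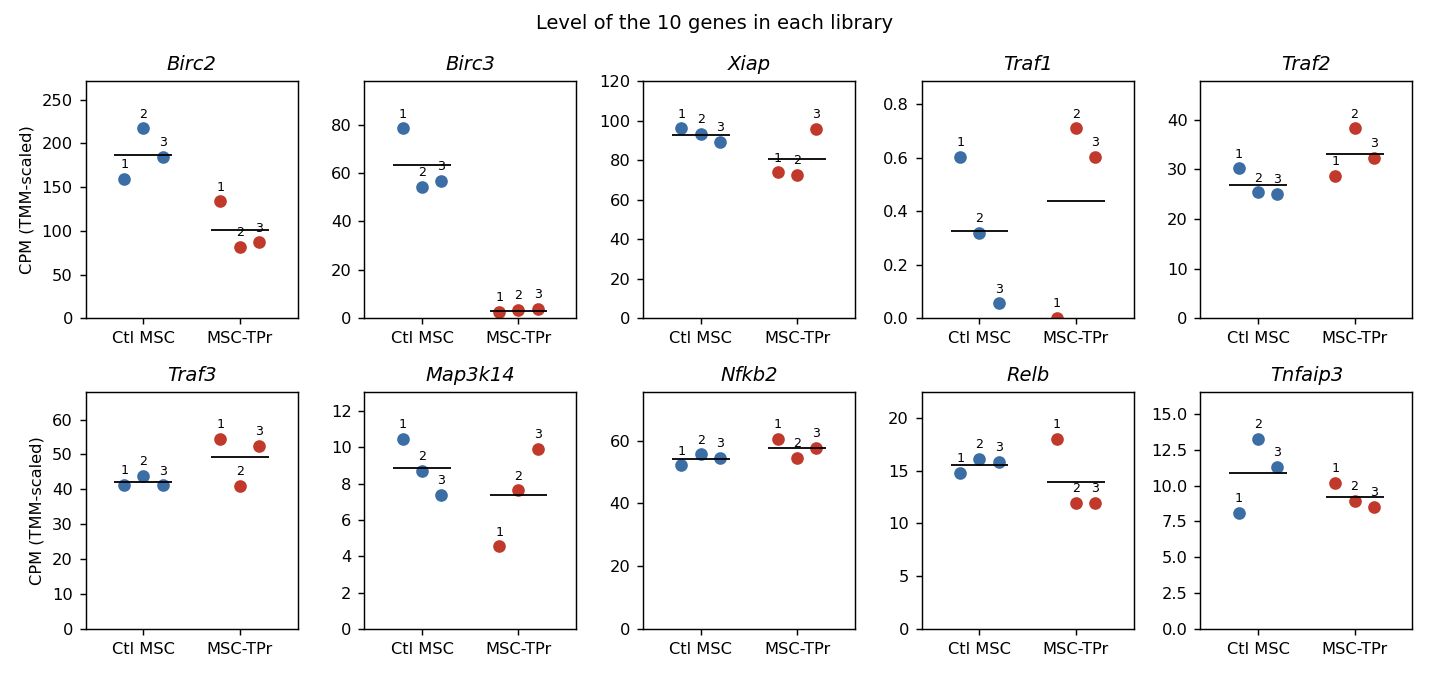
Level of each of the 10 genes in CPM (y axis, from 0, scaled with TMM) in the 3 Ctl MSC libraries (blue) and the 3 MSC-TPr libraries (red). Points are libraries with their replicate number and lines are group means. Birc2 and Birc3 do not overlap between the groups, and the other 8 genes do.

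The fall of Birc3 exceeded that of Birc2 within each library too, where scaling plays no part. The ratio of Birc3 to Birc2 reads was 0.491, 0.250 and 0.307 in Ctl MSC 1 to 3 and 0.018, 0.040 and 0.044 in MSC-TPr 1 to 3. Against Xiap reads, Birc3 had ratios of 0.815, 0.582 and 0.635 in Ctl MSC and 0.033, 0.045 and 0.040 in MSC-TPr. Birc2 against Xiap gave 1.66, 2.32 and 2.07 in Ctl MSC and 1.81, 1.13 and 0.905 in MSC-TPr. This last ratio overlapped between the groups, through MSC-TPr 1, whereas both ratios with Birc3 separated them. Birc2 and Birc3 were chosen by their lower counts, so these ratios are a description and lend no support to the fall.

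Birc2 and Birc3 are neighbours and close relatives. In mm10, Birc2 lies on the minus strand of chromosome 9 from 7818227 to 7837064 and Birc3 on the same strand from 7848699 to 7873186, with 11.6 kb between them. Reads of relatives are most easily confused where the transcripts are identical, and such stretches were short. Of the 5057 windows of 100 bases in Birc3 transcripts, 0.297% also occur in Birc2 transcripts, and no window of 30 bases is shared with Xiap. The longest run common to both is 114 bases, lies in the coding part of each gene and within 1 exon, and is printed because it is the place where reads of the pair are hardest to separate.

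Birc3 (chr9:7854491-7854604, minus strand) and Birc2 (chr9:7821098-7821211, minus strand), shared run: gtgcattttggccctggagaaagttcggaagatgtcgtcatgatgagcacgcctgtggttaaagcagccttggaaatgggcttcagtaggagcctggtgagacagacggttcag

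The promoters of both genes, as given by RefSeq for GRCm38.p6 (the assembly of mm10), are shown because Birc3 is a known NF-kappaB target and these are the windows that were searched for binding motifs. Each holds 250 bases before and 50 bases after the annotated start, 5′ to 3′ on the strand of the gene. Neither sequence holds a match, so neither has capitals.

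Birc3 (chr9:7873121-7873420, minus strand): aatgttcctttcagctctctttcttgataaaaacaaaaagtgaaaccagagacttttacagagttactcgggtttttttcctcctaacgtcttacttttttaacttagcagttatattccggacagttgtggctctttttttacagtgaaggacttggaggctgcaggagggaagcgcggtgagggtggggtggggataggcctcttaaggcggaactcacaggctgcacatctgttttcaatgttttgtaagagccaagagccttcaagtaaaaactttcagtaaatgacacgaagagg
Birc2 (chr9:7837008-7837307, minus strand): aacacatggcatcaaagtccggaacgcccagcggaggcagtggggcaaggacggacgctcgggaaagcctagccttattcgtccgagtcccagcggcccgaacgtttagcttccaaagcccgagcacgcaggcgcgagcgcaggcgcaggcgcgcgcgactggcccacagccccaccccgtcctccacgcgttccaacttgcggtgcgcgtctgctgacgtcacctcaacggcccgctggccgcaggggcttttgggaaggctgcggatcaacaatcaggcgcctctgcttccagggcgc

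Searched on both strands were the kappaB consensus, the IRF element (GAAA, any 2 bases, GAAA) and the AP-1 element TGANTCA. The kappaB consensus was found in 8.46% of 32851 promoters in the RefSeq table, the IRF element in 3.44% and the AP-1 element in 7.81%. Of the 10 genes 9 had a promoter entry, with 15 windows in all, and Relb had none. The kappaB consensus was found in 6 of the 15 windows, which belong to 4 of the 9 genes (Tnfaip3, Traf3, Nfkb2 and Xiap). The AP-1 element was found in 2 windows, of Tnfaip3 and Nfkb2, and the IRF element in none. Windows of 1 gene can overlap, so they are not independent. The single Birc3 window and both Birc2 windows had none of these letters, which says nothing about sites elsewhere. GC content was 43.0% in the Birc3 window and 67.0% in the Birc2 window shown.

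None of the other 8 genes was called with all 6 libraries, where 0.426% of all genes tested were called. Each of the 8 also had overlapping groups, against 22.6% of all genes tested whose groups did not overlap. In edgeR's test 0 of the 8 had an unadjusted p under 0.05, and DESeq2 called 0 of them, beside 4.07% of the genes it tested.

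**Figure D2:**
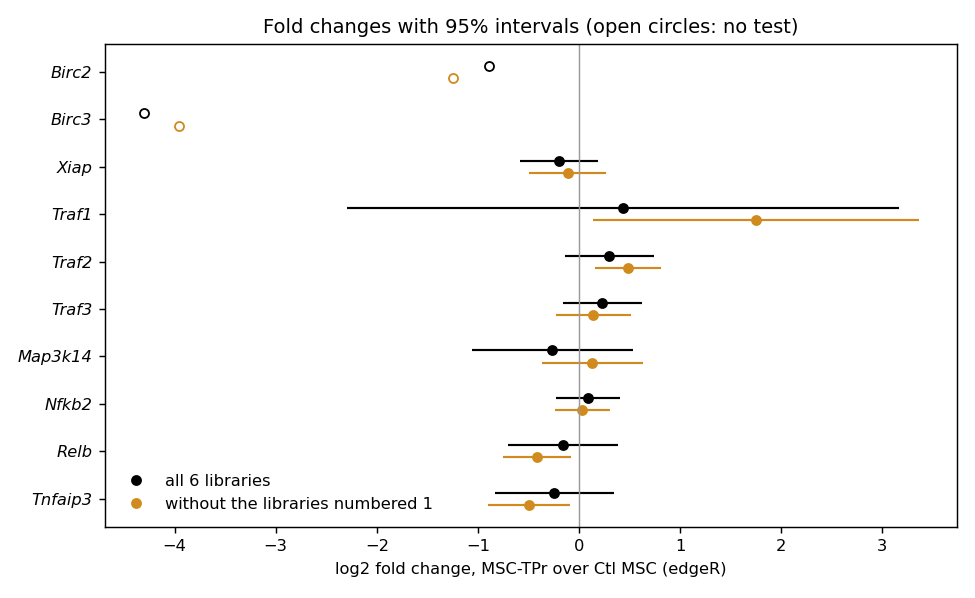
Log2 fold change of MSC-TPr over Ctl MSC (x axis) for the 10 genes, with all 6 libraries (black) and without the libraries numbered 1 (orange), from edgeR. Bars are 95% confidence intervals, and Birc2 and Birc3 are open circles without interval because they were chosen by this difference and no test of it is reported. Both lie below 0, while the intervals of the other 8 genes with all 6 libraries include 0.

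The adaptors of the cIAP complex, TRAF2 and TRAF3, kept levels whose groups overlapped. Traf2, which holds the cIAPs in the complex, was at 30.2, 25.4 and 25.0 CPM in Ctl MSC 1 to 3 and at 28.7, 38.3 and 32.4 CPM in MSC-TPr 1 to 3. Its log2 fold change was 0.30 (95% interval −0.14 to 0.74, adjusted p = 0.493 in edgeR's quasi-likelihood test with Benjamini-Hochberg adjustment over all genes). MSC-TPr 2 and 3 were above every Ctl MSC library, and MSC-TPr 1 was not. Without the libraries numbered 1 the value was 0.49 with an edgeR adjusted p of 0.029, under the p threshold but short of the fold threshold. Traf3, which brings NIK to the complex, was at 41.2, 43.7 and 41.1 CPM in Ctl MSC and at 54.4, 40.9 and 52.5 CPM in MSC-TPr. Here MSC-TPr 2 lay with the controls and the others above them. The log2 fold change was 0.23 (95% interval −0.16 to 0.62, edgeR adjusted p = 0.554), and 0.14 (adjusted p = 0.470) without the libraries numbered 1.

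Within libraries, Traf2 had 0.733, 0.580 and 0.609 reads per Traf3 read in Ctl MSC and 0.527, 0.935 and 0.617 in MSC-TPr, so this ratio overlapped. The number of Birc2 reads per Traf2 read was 5.28, 8.56 and 7.38 in Ctl MSC 1 to 3 and 4.66, 2.13 and 2.68 in MSC-TPr 1 to 3. All 3 MSC-TPr values were below all 3 Ctl MSC values, with MSC-TPr 1 nearest to the controls. As Birc2 was chosen by its fall, nothing is read from this separation.

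Traf1, an inducible adaptor that binds TRAF2 and the cIAPs, was at the limit of detection. It had 10, 6 and 1 reads in Ctl MSC 1 to 3 and 0, 12 and 13 reads in MSC-TPr 1 to 3. The libraries of each group spanned almost the same range, and at this depth a change was not detectable. Its interval ran from −2.30 to 3.17 on the log2 scale around an estimate of 0.43 (edgeR adjusted p = 0.890), and without the libraries numbered 1 the estimate was 1.75 (adjusted p = 0.074).

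Map3k14 codes for NIK, the kinase whose amount sets the non-canonical branch. Its RNA was at 10.5, 8.71 and 7.39 CPM in Ctl MSC 1 to 3 and at 4.54, 7.63 and 9.93 CPM in MSC-TPr 1 to 3. MSC-TPr 1 was the lowest library and MSC-TPr 2 and 3 lay within the Ctl MSC range. The log2 fold change of −0.26 (95% interval −1.06 to 0.53, edgeR adjusted p = 0.760) turned to 0.13 (adjusted p = 0.619) without the libraries numbered 1. NIK is controlled mainly as a protein, which these counts do not measure.

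The 2 NF-kappaB subunits of the non-canonical branch differed in how steady they were. Nfkb2, the precursor p100, was at 52.1, 55.7 and 54.4 CPM in Ctl MSC 1 to 3 and at 60.5, 54.6 and 57.7 CPM in MSC-TPr 1 to 3. These are narrow ranges, with the lowest MSC-TPr value inside that of the controls. The log2 fold change was 0.09 (edgeR adjusted p = 0.795), and its 95% interval of −0.22 to 0.40 was the narrowest among the 8 tested genes. Without the libraries numbered 1 it was 0.03 (adjusted p = 0.837). Exons of Nfkb2 overlap those of Psd on the opposite strand over 299 bases, 6.52% of its exon length, and the strand setting of the counting is not given in the sources used here.

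Relb, the partner of p52, was at 14.8, 16.1 and 15.8 CPM in Ctl MSC and at 18.0, 11.9 and 11.9 CPM in MSC-TPr. MSC-TPr 1 was the highest library of all, and MSC-TPr 2 and 3 were the lowest. The log2 fold change was −0.16 (95% interval −0.71 to 0.39, edgeR adjusted p = 0.793) with all 6 libraries and −0.42 (adjusted p = 0.04998, under the p threshold but short of the fold threshold) without those numbered 1. Relb reads per read of its canonical relative Rela were 0.187, 0.153 and 0.153 in Ctl MSC and 0.140, 0.108 and 0.113 in MSC-TPr, lower in all 3 MSC-TPr libraries. Relb and Rela each overlapped between the groups. How often ratios of other gene pairs separate was not examined, so nothing is read from this. Nfkb2 reads per Nfkb1 read were 0.860, 0.940 and 1.002 in Ctl MSC and 1.27, 1.09 and 0.992 in MSC-TPr, which overlapped.

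Tnfaip3 codes for A20, the ubiquitin-editing enzyme that shuts off canonical NF-kappaB and is induced by it. It was at 8.10, 13.2 and 11.3 CPM in Ctl MSC 1 to 3 and at 10.2, 8.93 and 8.49 CPM in MSC-TPr 1 to 3. Ctl MSC 1 was below all MSC-TPr libraries, whereas Ctl MSC 2 and 3 were above them. The log2 fold change was −0.24 (95% interval −0.83 to 0.35, edgeR adjusted p = 0.696), and −0.49 (adjusted p = 0.052) without the libraries numbered 1.

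The promoters of Nfkb2 and Tnfaip3 are printed as the counterpart to those of Birc3 and Birc2, since they belong to NF-kappaB targets whose groups overlapped. Traf1 is also such a target, and its window held no match, nor did the other Tnfaip3 window. No contrast in motifs is therefore read from the windows shown. Capitals mark the matches to the kappaB consensus and, in Tnfaip3, also the AP-1 element.

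Nfkb2 (chr19:46304487-46304786, plus strand): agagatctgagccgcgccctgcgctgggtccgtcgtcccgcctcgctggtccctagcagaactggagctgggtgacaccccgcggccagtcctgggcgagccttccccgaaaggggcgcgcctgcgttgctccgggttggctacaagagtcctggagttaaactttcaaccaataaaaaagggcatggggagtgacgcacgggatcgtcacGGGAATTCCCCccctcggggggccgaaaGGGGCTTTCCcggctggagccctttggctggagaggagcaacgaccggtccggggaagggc
Tnfaip3 (chr10:19015361-19015660, minus strand): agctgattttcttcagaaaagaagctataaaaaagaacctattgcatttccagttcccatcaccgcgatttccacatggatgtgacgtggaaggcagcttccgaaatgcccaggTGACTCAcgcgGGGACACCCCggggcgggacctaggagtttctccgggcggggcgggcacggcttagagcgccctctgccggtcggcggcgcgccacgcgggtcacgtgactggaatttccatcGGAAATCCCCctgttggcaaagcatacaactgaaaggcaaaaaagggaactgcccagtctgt

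In this Nfkb2 window 3 matches were found, of which 2 overlap as the forms on opposite strands, 39 and 38 bases before the start, and the remaining one begins 11 bases before it. Nfkb2 has 2 further annotated windows with a match, which overlap each other and share the site GGGACTTTCC. In Tnfaip3 the kappaB matches begin 125 and 12 bases before the start, the second on the opposite strand, and the AP-1 match TGACTCA begins 136 bases before it. A match is a string of letters and was not shown to be bound.

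Xiap, the relative of the cIAPs that inhibits caspases directly, was at 96.2, 93.4 and 89.2 CPM in Ctl MSC 1 to 3 and at 73.9, 72.6 and 95.9 CPM in MSC-TPr 1 to 3. MSC-TPr 3 lay within the Ctl MSC range and the other MSC-TPr libraries below it. The log2 fold change was −0.20 (95% interval −0.59 to 0.19, edgeR adjusted p = 0.608), and −0.11 (adjusted p = 0.585) without the libraries numbered 1. The test of the difference between Xiap and the cIAP genes was not made, because the latter were chosen for theirs.

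Levels of the 10 genes were compared with each other per kb of merged exons. In Ctl MSC the order was Birc2 (40.9 ± 6.29 CPM per kb, SD, n = 3), Birc3 (12.6 ± 2.64), Nfkb2 (11.8 ± 0.389), Xiap (9.81 ± 0.369), Traf3 (5.72 ± 0.204), Traf2 (5.27 ± 0.567), Relb (4.01 ± 0.179), Tnfaip3 (1.51 ± 0.360), Map3k14 (1.35 ± 0.234) and Traf1 (0.0370 ± 0.0311). The neighbours in this order whose libraries overlapped were Birc3 with Nfkb2, Traf3 with Traf2, and Tnfaip3 with Map3k14. In MSC-TPr, Birc2 remained first with 22.0 ± 6.25 CPM per kb. Birc3 stood ninth with 0.635 ± 0.142, after Map3k14 with 1.12 ± 0.413, whose range it overlapped. Traf3 with Traf2 and Tnfaip3 with Map3k14 again overlapped. The other 8 genes held the same order in both groups.

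**Figure D3:**
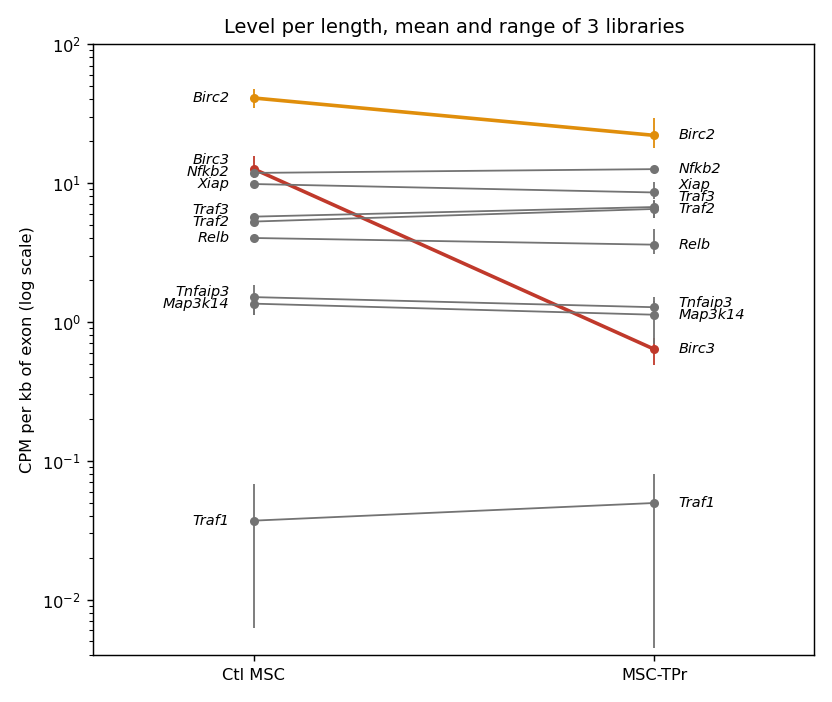
CPM per kb of exon (y axis, log scale) of the 10 genes in Ctl MSC (left) and MSC-TPr (right). Points are means, bars run from the lowest to the highest of 3 libraries, and lines join the means of 1 gene. Traf1 was at 0 in 1 MSC-TPr library, so its bar is clipped near the bottom of the axis. Birc3 goes from second to ninth, and the other lines do not cross each other.

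Most ligands that switch on the non-canonical branch were at or near the limit of detection in these cells. Of 10 ligand genes 3 were listed at 0 in all libraries and only Tnfsf12 (TWEAK) and Tnfsf9 passed the filter. Tnfsf12, the ligand of TNFRSF12A, had the highest CPM of the list, not corrected for length, with log2 fold change −0.25 (edgeR adjusted p = 0.710) and −0.01 (adjusted p = 0.966) without the libraries numbered 1. Neither ligand was called, and 0 had an unadjusted p under 0.05. Receptors were present. Of 9 receptor genes 5 passed the filter, 0 were called, and 2 had an unadjusted p under 0.05. The median log2 fold change of the 5 was −0.40, beside 0.01 for all genes tested. Tnfrsf12a, the TWEAK receptor, was at 231, 136 and 159 CPM in Ctl MSC against 239, 440 and 265 CPM in MSC-TPr, with log2 fold change 0.84 (edgeR adjusted p = 0.282) and no overlap. Tnfrsf1b, the TNF receptor 2, was at 65.6, 79.1 and 79.8 CPM in Ctl MSC against 54.4, 39.7 and 49.7 CPM in MSC-TPr, with log2 fold change −0.64 (adjusted p = 0.191) and no overlap. Without the libraries numbered 1 both were called, Tnfrsf12a with 1.26 (adjusted p = 0.009) and Tnfrsf1b with −0.83 (adjusted p = 0.006). Of the 6 receptors tested in that setting 1 was called higher and 3 lower. The lower ones besides Tnfrsf1b were at low levels, and are named after their values were seen. They were Cd40 (mean 0.474 CPM over all 6 libraries) and Tnfrsf4 (0.385 CPM), which did not pass the filter with all 6. Ltbr, at a mean of 127 CPM, overlapped between the groups, with log2 fold change 0.14 with all 6 libraries (edgeR adjusted p = 0.733).

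The kinases between receptor and NF-kappaB showed no call with all 6 libraries. Of the 10 genes of the IKK and NIK axis all passed the filter, 1 had an unadjusted p under 0.05, and the median log2 fold change was −0.17. MSC-TPr was lower without overlap for 4 of the 10, beside 12.1% of all genes tested. These were Ikbke (IKKε) at 8.04, 8.76 and 8.44 CPM in Ctl MSC against 2.77, 3.90 and 5.38 CPM in MSC-TPr, and Tab1, Map3k7 (TAK1) and Tbk1 with log2 fold changes from −0.32 to −0.21. For Ikbke the log2 fold change was −1.06 (edgeR adjusted p = 0.192), and −0.88 (adjusted p = 0.019) without the libraries numbered 1. There Tab1, Map3k7 and Tbk1 had −0.47, −0.41 and −0.23, and 2 genes of the list were called, both lower. Under DESeq2, 1 of the 10 genes was called lower. Ikbkg (NEMO), in contrast, overlapped between the groups with −0.85 (adjusted p = 0.369) and gave −1.52 without the libraries numbered 1. It is named here after its values were seen.

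The canonical branch had no gene whose groups were apart among the 7 of 9 that passed the filter, and 0 were called or had an unadjusted p under 0.05. The median log2 fold change was −0.03. Its gene with the highest CPM, not corrected for length, was Rela, the p65 subunit, with 79.2, 105 and 103 CPM in Ctl MSC against 128, 111 and 105 CPM in MSC-TPr. For Rela the log2 fold change was 0.26 (edgeR adjusted p = 0.529), and 0.05 (adjusted p = 0.707) without the libraries numbered 1, where 2 genes of the list were called higher.

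In the TNF receptor 1 complex and its ubiquitin editors 18 of 19 genes passed the filter and 0 were called, with 2 at an unadjusted p under 0.05 and a median of 0.09. Groups were apart in 4, or 22.2% of the 18, close to the 22.6% of all genes. Itch (0.45), Rbck1 (0.35) and Tradd (0.29) were higher in MSC-TPr, and Ripk1 (−0.25), the kinase to which cIAPs attach ubiquitin, was lower. Ripk1 itself was at 75.4, 74.1 and 78.5 CPM in Ctl MSC against 65.8, 64.0 and 62.7 CPM in MSC-TPr (edgeR adjusted p = 0.416). Without the libraries numbered 1 these 4 had 0.21, 0.34, 0.32 and −0.27 and were not called, while 2 other genes of the list were called higher. Of the other TRAF and adaptor genes 7 of 8 passed, 0 were called by edgeR with 2 at an unadjusted p under 0.05, and DESeq2 called 1 higher. Tank, an adaptor that binds TRAFs, was at 84.6, 67.3 and 71.7 CPM in Ctl MSC against 116, 133 and 110 CPM in MSC-TPr, with log2 fold change 0.68 (edgeR adjusted p = 0.147). Traf7 had 0.42 (adjusted p = 0.264), and for both the groups did not overlap. With the 4 libraries numbered 2 and 3, both were called, Tank with 0.81 (edgeR adjusted p = 0.005) and Traf7 with 0.57 (adjusted p = 0.008), among 3 genes of the list called higher and 2 lower.

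Among other IAP genes 3 of 7 passed the filter, 0 were called and 1 had an unadjusted p under 0.05. Birc6, a very large ubiquitin-conjugating IAP, was at 130, 157 and 134 CPM in Ctl MSC and at 255, 162 and 233 CPM in MSC-TPr. The groups did not overlap and the log2 fold change was 0.62 (edgeR adjusted p = 0.246), opposite in sign to Birc2 and Birc3, and 0.44 (adjusted p = 0.115) without the libraries numbered 1, where 1 gene of the list was called higher. Of 10 caspases, IAP antagonists and death adaptors all passed, 0 were called, 0 had an unadjusted p under 0.05, and the median was 0.06. Cycs (cytochrome c) was the only one of them with groups apart, with log2 fold change 0.50 (edgeR adjusted p = 0.338). In the 4 libraries numbered 2 and 3 it was called with 0.76 (adjusted p = 0.015), and the list held 3 genes called higher and 1 lower.

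Outputs of NF-kappaB pointed both ways. Of 26 target genes 17 passed the filter, 1 was called beside 0.426% of all genes, and 5 had an unadjusted p under 0.05 beside 15% of all genes. Positive fold changes numbered 6 and negative ones 11, with a median of −0.23, but without the libraries numbered 1 the median was 0.51 and 9 of the 17 were called higher and 2 lower. The called gene was Ccl5, a T cell chemokine. It was at 17.9, 24.9 and 26.0 CPM in Ctl MSC and at 1.38, 3.67 and 2.78 CPM in MSC-TPr, a log2 fold change of −3.13 (edgeR adjusted p = 0.039). The list had 0 called genes when Ctl MSC 2, Ctl MSC 3, MSC-TPr 2 or MSC-TPr 3 was left out. Cxcl10 was at 26.9, 5.02 and 6.07 CPM in Ctl MSC and at 0.830, 1.66 and 2.78 CPM in MSC-TPr, with −2.84 (adjusted p = 0.199). Once the libraries numbered 1 were left out, both were called lower, Ccl5 with −2.99 and Cxcl10 with −1.29 (edgeR adjusted p = 0.015). Both Ccl5 and Cxcl10 are induced by interferon as well.

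The survival gene Bcl2l1 (Bcl-xL) lay on the other side, with 34.0, 40.2 and 41.8 CPM in Ctl MSC against 83.3, 66.4 and 50.1 CPM in MSC-TPr. Its log2 fold change was 0.79 (edgeR adjusted p = 0.195), and that of Sod2, which codes for mitochondrial superoxide dismutase, was 0.49 (adjusted p = 0.216). The groups of both did not overlap, and without the libraries numbered 1 both were called higher, with 0.51 (edgeR adjusted p = 0.045) and 0.60 (adjusted p = 0.013). Of 10 non-canonical targets 2 passed the filter, with 0 called and 1 at an unadjusted p under 0.05, and 5 were listed at 0 in all libraries, among them the lymphoid chemokines Cxcl13, Ccl19 and Ccl21a. Enpp2, which codes for autotaxin, was the one at an unadjusted p under 0.05, and is named after its values were seen. It was at 41.1, 116 and 124 CPM in Ctl MSC against 45.8, 33.5 and 31.1 CPM in MSC-TPr, where Ctl MSC 1 lay below MSC-TPr 1. Its log2 fold change was −1.35 (edgeR adjusted p = 0.227), and it was called lower without the libraries numbered 1, with −1.89. Cxcl12, with the higher CPM of the 2, ran from 331 to 1408 CPM in Ctl MSC and from 67.9 to 488 CPM in MSC-TPr. The extremes of Cxcl12 were both libraries numbered 1, and its log2 fold change was −1.19 (adjusted p = 0.554) with all 6 libraries and 0.34 (adjusted p = 0.163) without them.

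Interferon-stimulated genes separated the groups in the same direction as Birc3. Of 12 listed 11 passed the filter, all 11 were lower in every MSC-TPr library than in every Ctl MSC library (beside 12.1% of all genes tested), and 3 were called. These were Oasl2 (log2 fold change −3.59, edgeR adjusted p = 0.031), Usp18 (−3.49, adjusted p = 0.049) and Rsad2 (−2.38, adjusted p = 0.035). When the libraries numbered 1 were left out, all 11 were called lower, with a median of −2.50 against −2.71 with all 6. The mean log2 CPM of the list was 5.49, 4.34 and 4.39 in Ctl MSC and 2.38, 2.35 and 2.18 in MSC-TPr. Whether they have a part in the fall of Birc3 was not tested. Cell division genes split the libraries otherwise. None of the 12 was called or had groups apart with all 6 libraries, 0 had an unadjusted edgeR p under 0.05, and all 12 were called higher without the libraries numbered 1. Within each group Birc3 was highest or lowest in the library that stood apart by cell division (highest in Ctl MSC 1, lowest in MSC-TPr 1), and the part of cell division in this was not tested.

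**Figure D4:**
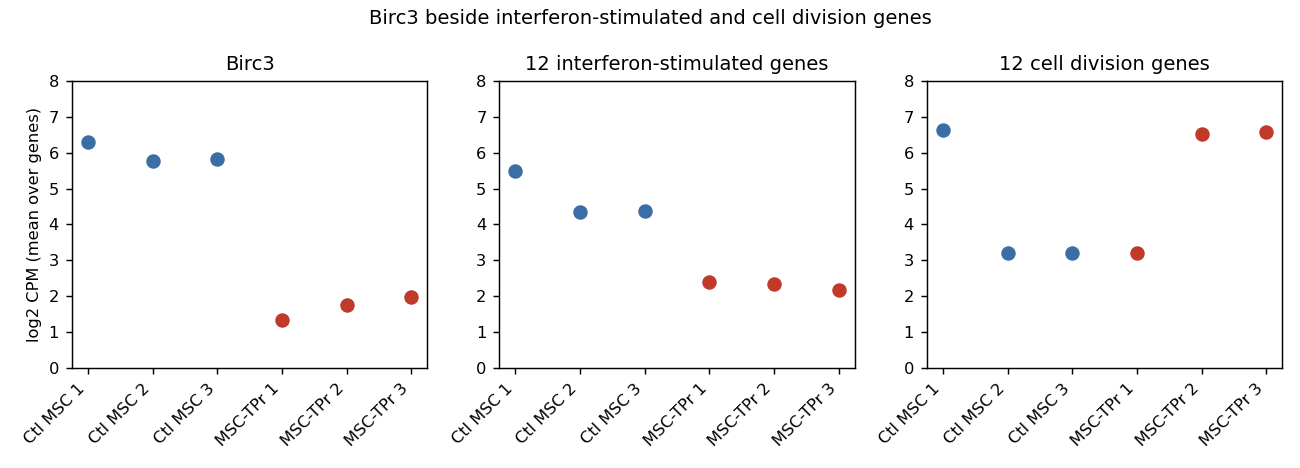
Log2 CPM (y axis) of Birc3 (left) and mean log2 CPM over 12 interferon-stimulated genes (middle) and 12 cell division genes (right) in each library, Ctl MSC in blue and MSC-TPr in red. Birc3 and the interferon-stimulated genes are lower in all 3 MSC-TPr libraries, while the cell division genes group Ctl MSC 1 with MSC-TPr 2 and 3.

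Around Birc3 most of the tested genes had negative log2 fold changes. Within 2 Mb of its start 24 genes were in the table, and 10 besides Birc2 and Birc3 passed the filter, 8 with negative and 2 with positive log2 fold changes. Of these 10, 3 lay lower and 1 higher without overlap, beside 12.1% and 10.6% of all genes tested. By the call rule 1 was called, beside 0.426% of all genes tested, and nothing is read from so few genes. The nearest, Tmem123 and Yap1, were at 1655 to 1729 and 1397 to 1731 CPM in Ctl MSC, and at 1188 to 1446 and 804 to 1704 CPM in MSC-TPr. Tmem123, on the far side of Birc2, did not overlap (log2 fold change −0.34, edgeR adjusted p = 0.392), and Yap1, the Hippo pathway coactivator next to Birc3, did (−0.47, adjusted p = 0.526). The 1 called gene was Pdgfd, a growth factor gene 1.7 Mb away, at 3.79 to 9.55 CPM in Ctl MSC against 63.2 to 155 CPM in MSC-TPr (4.28, adjusted p = 0.035). Pgr, the progesterone receptor gene, was at 89.3 to 201 CPM in Ctl MSC against 8.91 to 23.5 CPM in MSC-TPr, with −3.27 (adjusted p = 0.0595, not called). Dync2h1 was also lower without overlap (−1.21, adjusted p = 0.185). Dcun1d5, Mmp13, Mmp3, Trpc6 and Arhgap42 overlapped between the groups. With only libraries 2 and 3 of each group, the log2 fold change was 5.12 for Pdgfd, −3.25 for Pgr, −1.51 for Dync2h1 and −0.93 for Yap1, all called, and −0.36 for Tmem123, not called. Mmp13 turned positive there, with 0.22.

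**Figure D5:**
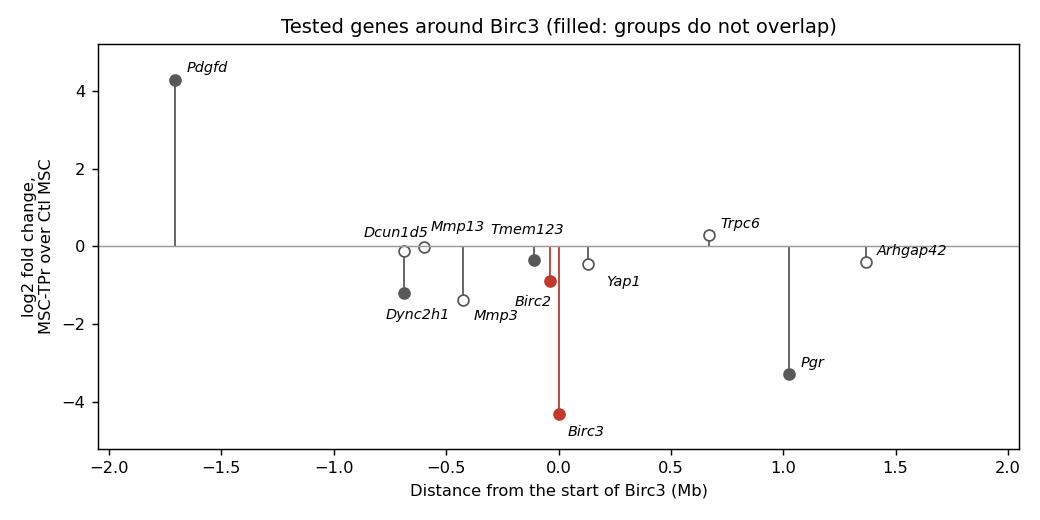
Log2 fold change of MSC-TPr over Ctl MSC (y axis) for the tested genes within 2 Mb of the start of Birc3, by distance of their start from it (x axis, in Mb). Filled circles are genes whose groups do not overlap, and Birc2 and Birc3 are red. Pdgfd is higher and Pgr, Dync2h1 and Tmem123 are lower, with overlapping genes between them.

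The genes with the profile most like that of Birc3 over the 6 libraries were themselves far lower in MSC-TPr. Likeness was the root mean square difference of centred log2 CPM, which was 0.26 for Rprm, 0.32 for Rps6ka6, 0.35 for Hdgfrp3, 0.43 for Xlr3a and 0.44 for Fut4, beside a median of 2.18 over all genes tested. Hdgfrp3 was at 20.2, 26.2 and 25.8 CPM in Ctl MSC against 0.664, 0.946 and 0.974 CPM in MSC-TPr. Fut4 was listed at 0 in all 3 MSC-TPr libraries and was at 1.12 to 1.54 CPM in Ctl MSC. Rprm, Rps6ka6 and Xlr3a reached at most 0.093 CPM in any MSC-TPr library, below the level of 3 reads. The edgeR log2 fold changes of Rprm, Rps6ka6, Xlr3a and Fut4 were −5.54, −6.22, −6.52 and −7.55, beside −4.31 for Birc3. At such low levels the prior count of 2 narrows differences in log2 CPM, so their likeness to Birc3 is limited. For Birc2 the closest were Fbxw4 (0.07), Sfi1 (0.08), Fam193b (0.09), Trafd1 (0.10) and BC005537 (0.12), beside a median of 0.62. Trafd1 was at 49.5, 59.0 and 55.7 CPM in Ctl MSC against 38.4, 24.0 and 29.4 CPM in MSC-TPr, with MSC-TPr 1 nearest to the controls as in Birc2. These genes share all libraries with the cIAP genes and were picked for likeness, so this is a description.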

How the data were processed

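Polyadenylated RNA of 6 libraries, 3 per group as labelled, was sequenced in pairs with a stranded kit. The authors trimmed reads with Trimmomatic 0.35, aligned them with TopHat2 2.1.0 to mm10 and deposited raw read counts per gene from htseq-count. The submitters' processing notes also name CASAVA 1.8.2. The annotation and strand setting are not given in the sources used here. Of the reads counted, 79.2% to 86.2% lay on genes, 6.86% to 10.9% on no feature, 5.89% to 8.92% were not unique and 0.939% to 1.09% were ambiguous. Such rows entered neither library sizes nor tests.

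Genes were filtered with filterByExpr (minimum count 10), scaled by TMM and tested with the quasi-likelihood test of edgeR 4.0.16 in R 4.3.3, without covariates, with Benjamini-Hochberg adjustment over all genes tested. Intervals are 95%. Log2 CPM used a prior count of 2. DESeq2 1.42.0 was an alternative, and the code was tested on simulated data. Exon lengths came from GENCODE annotation of mm10, and promoters from RefSeq.

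Members and gene lists were chosen with earlier results of these data known. Genes named were the members, called genes and those without overlap in each list (up to 4), otherwise the one with the highest mean CPM, genes near Birc3 and the 5 most like Birc2 and Birc3.

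Libraries with the same number deviated in opposite ways (correlation −0.765, −0.594 and −0.604 for numbers 1, 2 and 3), so numbers were not taken as pairs. This was not particular to equal numbers. Ctl MSC 2 with MSC-TPr 3 and Ctl MSC 3 with MSC-TPr 2 each gave −0.577. Pairs of a library numbered 1 with one numbered 2 or 3 gave 0.622 to 0.723. No replicate pair agreed within sampling noise (chi-square per gene 4.76 at least).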

Additional observations from a re-analysis of the deposited data

How the results depend on the processing

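For the 8 genes with a reported test, 100 of 103 values under the alternatives kept their direction and their side of the call threshold. None of the 8 was called in the test reported, and some alternatives called no gene at all. Keeping their side of the threshold could hardly fail there and says little. Birc2 and Birc3 kept their direction in all 26 values, and their side of the threshold was not assessed. Both were chosen by their fall in these same counts, so this only describes them and lends the fall no support. Map3k14 reversed to 0.13 without replicate 1 of both groups, and Traf1 to −0.0676 without Ctl MSC replicate 3 and to −0.0520 without MSC-TPr replicate 2. Leaving out libraries gave −0.53 to 0.13 for Map3k14 and −0.0676 to 1.75 for Traf1. Birc2 and Birc3 moved to −1.25 and −3.95 without replicate 1. Traf1 was not tested with at least 10 counts in every library.

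Some fold changes changed sign without replicate 1, as those of Map3k14 and Cxcl12 did. The number of called genes also depended strongly on the setting. It was 3 higher and 48 lower in the test reported, 2 and 29 with at least 10 counts in every library, 244 and 439 with DESeq2, and 2498 and 2356 without replicate 1, where the common dispersion was 0.0168 against 0.124 with all 6 libraries. With the replicate number as a block edgeR called 0 and 0 (251 and 525 at an unadjusted p under 0.05). Leaving out 1 library at a time gave 0 to 11 higher and 0 to 105 lower. Without Ctl MSC 2, Ctl MSC 3 or MSC-TPr 3 no gene was called in either direction, without MSC-TPr 2 only 1 was, without MSC-TPr 1 there were 11 and 33, and without Ctl MSC 1 there were 3 and 105.

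In the pathway lists 0 genes were called higher and 1 lower. DESeq2 gave 1 and 3, the replicate block 0 and 0, removal of replicate 1 gave 21 and 11, and leaving out 1 library at a time gave 0 to 2 lower. The cause was not tested.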
